A study of Rattus with 6 samples.

Results

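Cytosolic and mitochondrial heat shock chaperones were examined in RNA sequencing of RC-4B/C, an established rat pituitary adenoma cell line. The genes were taken by name from the exon table: the HSP70, HSP90, HSP60/HSP10 and small heat shock protein genes, the J-domain proteins (Dnaja, Dnajb and Dnajc), the subunits of the CCT chaperonin, the BAG cochaperones, the heat shock factors Hsf1 and Hsf2, and Stip1, Ahsa1 and Trap1. The rule goes by gene name and has no threshold on a measured value. The rule found 76 of the 12801 genes in the table, covering 692 of its 118147 exons, and 5 chaperones of the endoplasmic reticulum (Hspa5, Hsp90b1, Dnajb9, Dnajb11 and Dnajc3) were left out by the rule. In 3 libraries the cells had received aspirin (acetylsalicylic acid, ASA) and in 3 control libraries the solvent dimethyl sulfoxide (DMSO). All 6 came from the same cell line, and neither a dose nor a duration is given in the labels used here. The comparison is ASA against DMSO, and because nothing in the labels says that replicates came from separate cultures, p-values measure the spread between these libraries, which may be technical.

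Chaperones bind unfolded or partly folded proteins and help them reach or keep their shape. HSP70 proteins work in cycles of ATP binding and hydrolysis: J-domain proteins deliver clients and start hydrolysis, and nucleotide exchange factors such as the BAG proteins and HSP110 let the client go. HSP90 finishes the folding of kinases and steroid receptors, the ring-shaped chaperonins enclose their clients (CCT in the cytosol for tubulin and actin, HSP60 with its lid HSP10 in mitochondria), and the small heat shock proteins hold unfolded chains without ATP. The transcription factor HSF1 switches on many of these genes when unfolded protein accumulates, and in secretory cells such as pituitary cells it acts beside the separate response of the endoplasmic reticulum.

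Levels are given as RPKM, read numbers scaled to the length of a gene's listed exons in kilobases and to the library's total reads, so that genes can be compared with each other. The 6 libraries held between 66492445 and 94486062 reads in listed exons. ASA replicate 2 was the shallowest and stood apart: the exons of a chaperone gene scattered by 0.691 around the gene's own shift in it (SD, log2 scale), against 0.173 to 0.203 in the other 5 libraries. It was the lowest of the 6 libraries for 45 of the 76 chaperone genes (59.2%, against 45.8% of all genes tested). Where its omission changes the call of a gene named here, both values are given. DMSO replicate 2 was the lowest DMSO library for 48 of the 76 (63.2%, against 46.1% of all genes). Of 9 lactotroph and neuroendocrine markers 8 could be analysed. Prolactin (Prl) lay between 14000 and 62200 and its activator Pou1f1 between 584 and 804 RPKM, with no call for either. The prohormone convertase Pcsk2 fell (14.7 to 23.7 in ASA against 41.3 to 47.4 in DMSO libraries, limma adjusted p = 0.0232), and Chga lay below DMSO in every ASA library without passing. Of the other hormone genes Cga fell 9.84-fold (1.16 to 4.17 against 23.8 to 28.3 RPKM, adjusted p = 0.0137) and Pomc was at most 2.62. Of 6 fibroblast markers only Dcn and Lum could be analysed, with a summed level of 2140 to 3280 in ASA and 1110 to 1170 in DMSO libraries. Nearly all of that sum was Dcn, which rose 2.49-fold (limma adjusted p = 0.0213), while Lum did not pass (log2 fold change -0.23). Of 6 leukocyte markers only Cd3e and Cd14 could, with sums of 12 to 30.2 and 39.6 to 57.5, and Cd3e fell (log2 fold change -1.49, limma adjusted p = 0.0209). The part of these differences in the results was not tested.

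Few chaperone genes differed between ASA and DMSO, and they did not move as a group. Of the 76 genes, 3 rose (Dnajb2, Hspa9 and Hsf1) and 2 fell (Bag1 and Dnajc25) in limma's moderated test on log2(RPKM + 0.1) at a Benjamini-Hochberg adjusted p under 0.05. All 76 passed the filter of a mean RPKM of at least 0.5. Over all 12502 genes tested, 6.21% rose and 4.99% fell, so in this fit the chaperone counts are not above the background of the comparison. This main fit with all libraries is meant wherever no other fit is named. The median log2 fold change of the 76 genes was -0.15, beside -0.06 over all genes, with 30 above and 46 below 0. Of all genes 46.5% lay above 0. In 8 of the 76 every ASA library lay above every DMSO library and in 18 every ASA library lay below, against 19.9% and 18.8% of all genes.

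**Figure D1:**
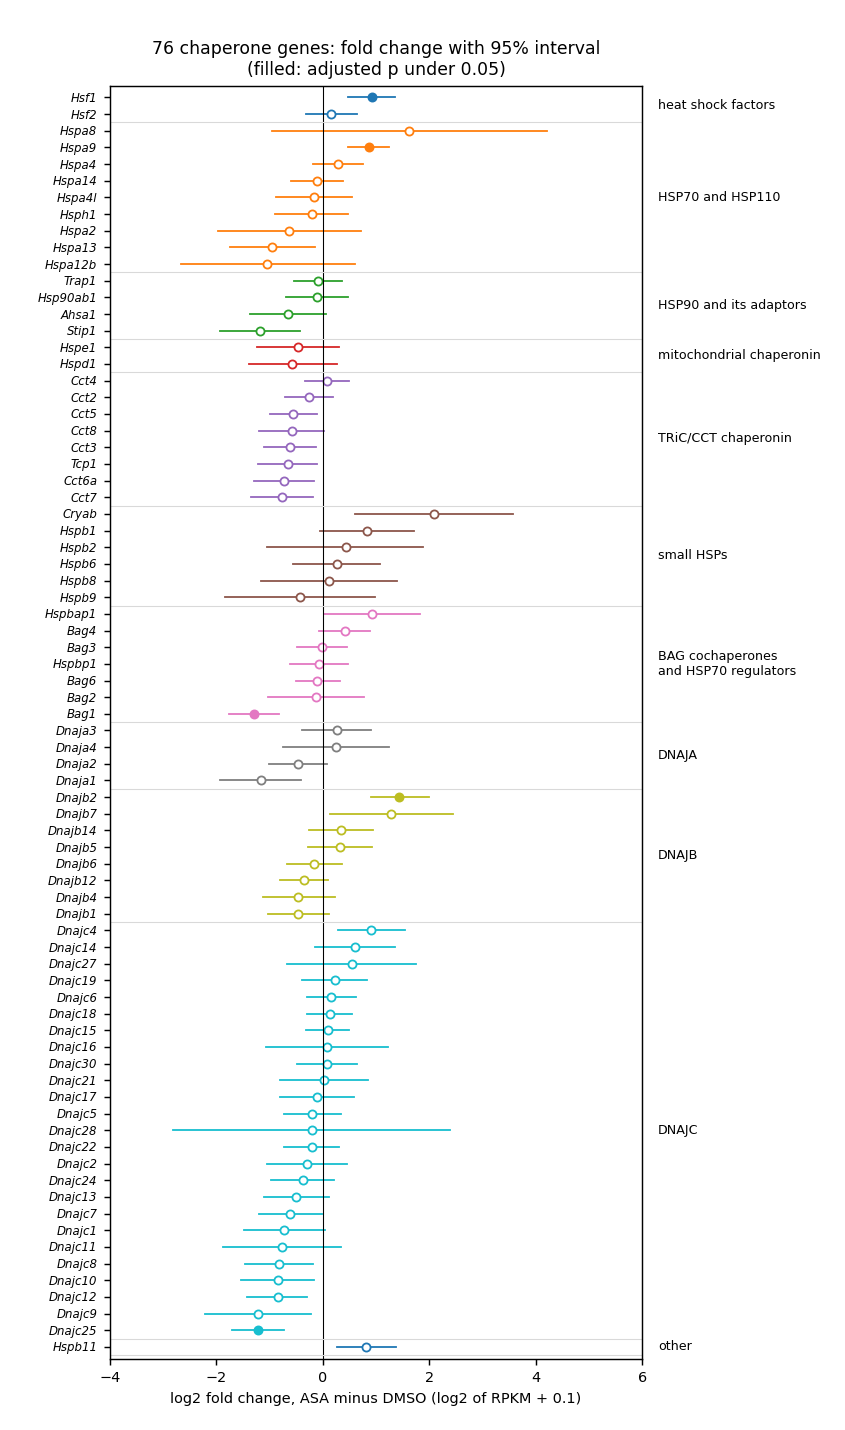
Log2 fold change of each of the 76 chaperone genes (x axis, ASA minus DMSO, log2 of RPKM + 0.1) by role, with lines for the 95% interval of limma's estimate. Filled points mark the 5 genes past the threshold, and 7 of the 8 CCT subunits lie to the left of 0.

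The calls depended on single libraries. Without ASA replicate 3 or without DMSO replicate 3 no gene of the table passed. All 5 calls were lost in those fits, and Bag1 alone kept its call (adjusted p = 0.0498 in limma) without DMSO replicate 1. Without ASA replicate 2, 8 chaperone genes rose and 7 fell, against a background of 12.8% higher and 8.07% lower. Without ASA replicate 2 and DMSO replicate 2, 10 rose and 15 fell, against 13.8% and 11.3%. Without ASA replicate 1 these counts were 7 and 8, against 7.86% and 8.30%. Library quality weights gave 17 higher and 19 lower, where 25.3% and 20.6% of all genes were called. Median log ratio scaling gave 3 and 7 (6.45% and 6.14% of all genes), and the median exon 3 and 4 (4.15% and 3.43%). In each fit given here with a background, the lower count was a larger share of the chaperone genes than that background. The higher count was so only without ASA replicate 1. These shares were not tested. The 5 genes named above were called in the fits without ASA replicate 2 and without both second replicates, each in the same direction.

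**Figure D2:**
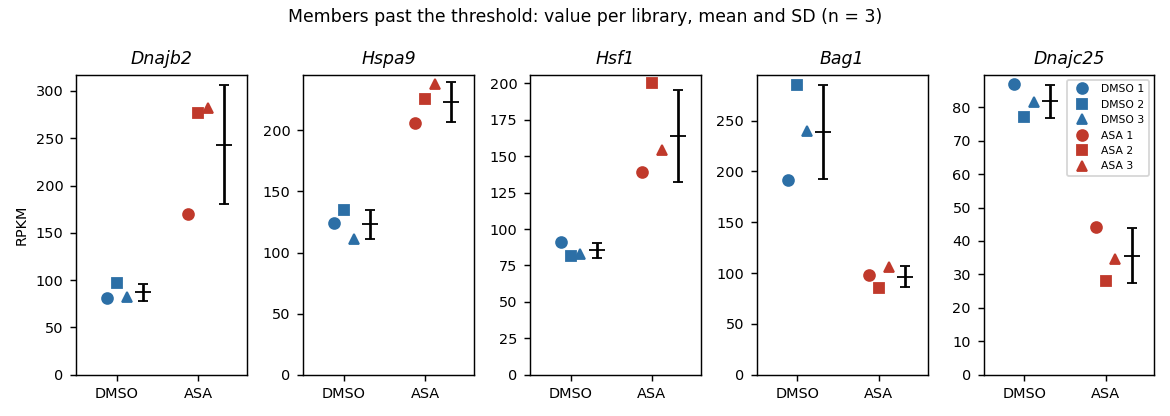
RPKM of the 5 chaperone genes past the threshold (y axis, from 0) in the 3 DMSO and 3 ASA libraries, with mean and SD as bars. The groups do not overlap for any of the 5, with Hspa9 between 206 and 238 in ASA and between 111 and 135 in DMSO.

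Hsf1, the master activator of heat shock genes, was higher with ASA. It had 139, 200 and 154 RPKM in ASA replicates 1, 2 and 3, and 91.4, 81.8 and 83.1 in DMSO replicates 1, 2 and 3. Every ASA library lay above every DMSO library, and ASA replicate 2 was the highest. The means were 164 ± 31.7 and 85.5 ± 5.16 (SD, n = 3), a 1.90-fold rise (log2 fold change 0.92 ± 0.19 SE, 95% interval 0.48 to 1.36, limma adjusted p = 0.0295). All 13 of its listed exons had a higher mean in ASA, and in 11 of them the groups did not overlap. In exons 4 and 5 ASA replicate 2 lay below every DMSO library (62 against 76 to 83.1, and 119 against 126 to 137). Its highest exon value was 384 in exon 7. Hsf1 lies at chr7:117538721-117564836 in Rnor_6.0. Of its exon values 30.8% were not whole reads. The call was kept without ASA replicate 1 or ASA replicate 2 and lost without any 1 of the other 4 libraries (adjusted p between 0.0145 and 0.156).

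Hsf2, a second heat shock factor that can pair with HSF1, had 31, 41.1 and 38.4 RPKM in ASA and 37.1, 28.4 and 33.2 in DMSO replicates 1, 2 and 3. The groups overlapped (log2 fold change 0.16, 95% interval -0.31 to 0.64, limma adjusted p = 0.621). Hsf4, a factor best known from the lens, stood in the list of related genes and rose. Its values were 17.3, 25.3 and 22.6 in ASA against 10.2, 11.5 and 9.37 in DMSO libraries (log2 fold change 1.05 ± 0.24, limma adjusted p = 0.0362). The Hsf4 call was kept only without ASA replicate 1 or ASA replicate 2 (adjusted p between 0.0243 and 0.182 over single omissions).

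Dnajb1, Hsph1 and Bag3, which are used as readouts of HSF1 activity, did not pass. Dnajb1, the stress-inducible partner of HSP70, had 63.3, 35.4 and 41.6 RPKM in ASA and 68.3, 56.7 and 62.3 in DMSO replicates 1, 2 and 3. Its log2 fold change was -0.46, with an interval of -1.02 to 0.11. Hsph1, an HSP110 exchange factor, had 110, 62.8 and 73.2 against 123, 66.3 and 97.5 (log2 fold change -0.21, interval -0.90 to 0.47). Bag3, which links HSP70 to autophagy, had 91.3, 110 and 70.2 against 84.9, 94.1 and 91.1 (log2 fold change -0.01, interval -0.49 to 0.46). For these 3 genes the limma adjusted p was 0.250, 0.653 and 0.969. The small heat shock protein genes Cryab and Hspb1, given below, had log2 fold changes above 0 (2.09 and 0.83) and did not pass either. Hspa1a, Hspa1b and Hsp90aa1 were not analysed here.

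Among the HSP70 genes, Hspa9 rose. It encodes mortalin, the HSP70 of the mitochondrial matrix that pulls imported proteins across the inner membrane. Its level was 206, 226 and 238 RPKM in ASA replicates 1, 2 and 3 and 124, 135 and 111 in DMSO replicates 1, 2 and 3. The ASA libraries lay close together and above all DMSO libraries. The means of 223 ± 16.3 and 123 ± 11.9 (SD, n = 3) differed 1.81-fold (log2 fold change 0.86 ± 0.16 SE, 95% interval 0.47 to 1.24, limma adjusted p = 0.0253). All 13 listed exons were higher on average, 9 of them without overlap. In exons 9 and 13 ASA replicate 1 (8.06 and 10.8) lay within the DMSO range, and in exon 12 (16.4) it lay below every DMSO library. ASA replicate 2 was the highest in exons 9, 12 and 13, with 80.4, 89.7 and 40.4. In exon 8 ASA replicate 2 (207) lay just under DMSO replicate 2 (210). RefSeq names 2 pseudogenes after Hspa9. The gene lies at chr18:27734045-27749132 (Rnor_6.0). Its call held without ASA replicate 1, ASA replicate 2 or DMSO replicate 2 and was lost without any 1 of the other 3 libraries (adjusted p between 0.0157 and 0.160).

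The other HSP70 and HSP110 genes did not pass. Hspa4, an exchange factor of the HSP110 type and the most abundant of this group, had 433, 353 and 475 RPKM in ASA against 393, 288 and 352 in DMSO libraries (log2 fold change 0.29, interval -0.19 to 0.76). Hspa14, which acts on the ribosome, had 88.6, 72.3 and 110 against 101, 83.4 and 105. Hspa2, known from the testis, was near the filter at 0.143 to 0.903 in the 6 libraries. Hspa13, a microsomal HSP70 and hence outside the cytosol and mitochondria, had 38.5, 15.3 and 35 against 52.2, 53.4 and 53.5 (log2 fold change -0.95, limma adjusted p = 0.113). It lay below DMSO in every ASA library and passed without ASA replicate 2 (log2 fold change -0.53, adjusted p = 0.0339).

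Hspa8, the constitutive HSP70 of the cytosol, stood out in a single library. Its level was 9.26, 171 and 6.12 RPKM in ASA replicates 1, 2 and 3 and 8.37, 5.52 and 7.04 in DMSO replicates 1, 2 and 3. Only ASA replicate 2 was high, 18.5 times the next library, and the other 5 overlapped. The fitted log2 fold change of 1.62 ± 1.11 did not pass (interval -0.96 to 4.21, limma adjusted p = 0.360) and was 0.13 without ASA replicate 2. The excess was present in all 9 listed exons, with 31.2 RPKM in the lowest exon of ASA replicate 2 (1.03 to 2.93 in the other libraries) and 521 in the highest (7.1 to 11.9). Of the Hspa8 exon values 33.3% were not whole reads. RefSeq (assembly GRCr8, used for names only) lists 33 pseudogene entries named after Hspa8, the most for any of the 76 genes, so reads of near-identical copies may be assigned among them and the level of Hspa8 is uncertain. Of the 22 chaperone genes with such entries, ASA replicate 2 was the highest library for 3 and the lowest for 17. Of the 54 without, it was the highest for 13 and the lowest for 28. The part of these copies in the Hspa8 values was not tested.

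**Figure D3:**
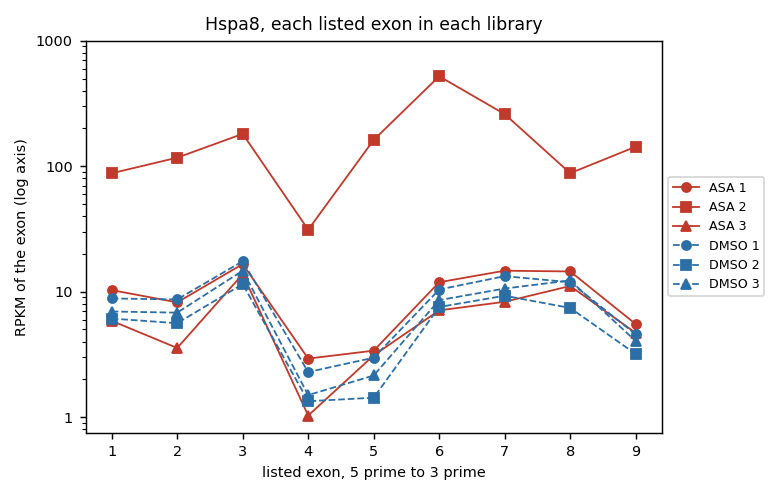
RPKM of each of the 9 listed exons of Hspa8 (x axis, 5′ to 3′; y axis on a log scale) in the 6 libraries. ASA replicate 2 lies above the other 5 libraries in every exon, up to 521 RPKM, and the other ASA and DMSO lines run together between 1.03 and 17.5.

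Neither HSP90 gene nor either adaptor passed the threshold in the main limma fit. At an unadjusted p under 0.05 there were 0 genes of this group on the higher and 1 (Stip1) on the lower side. Of all genes 15.5% were higher and 14.6% lower at that p. Hsp90ab1, the constitutive cytosolic HSP90, was the most abundant of the 76 genes, with 674, 1020 and 684 RPKM in ASA and 971, 666 and 907 in DMSO replicates 1, 2 and 3. The groups overlapped fully (log2 fold change -0.11, interval -0.69 to 0.48), and its level is uncertain because RefSeq names 23 pseudogenes after it. Trap1, the mitochondrial HSP90, had 97.8, 65.7 and 90.8 against 92.1, 83.4 and 91 (log2 fold change -0.09, interval -0.55 to 0.37). Stip1, the adaptor that hands clients from HSP70 to HSP90, had 72.3, 30.6 and 49.8 against 126, 86 and 120. All of its ASA values lay below all DMSO values. Its log2 fold change of -1.18 ± 0.32 just missed the threshold (limma adjusted p = 0.0551) and passed without ASA replicate 1 or without ASA replicate 2 (-1.48 and -0.86, adjusted p = 0.026 and 0.0439). With all libraries it passed in limma under median log ratio scaling (-1.14, adjusted p = 0.0344) and with the median exon (-1.17, adjusted p = 0.0359). Library quality weights gave -1.16 (adjusted p = 0.000651). With other single libraries omitted its adjusted p reached 0.204. In 12 of the 13 Stip1 exons the groups did not overlap. Ahsa1, which stimulates the ATPase of HSP90, had 128, 57.6 and 104 against 158, 120 and 157 (log2 fold change -0.65, interval -1.36 to 0.06). It passed only with library quality weights (-0.54, limma adjusted p = 0.0135).

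The cytosolic chaperonin CCT is built from 8 different subunits that form a double ring in equal amounts. The fold change was below 0 on the log2 scale for 7 of 8 subunits, also under median log ratio scaling. In the main limma fit 46.5% of all genes lay above 0. No subunit passed the threshold in that fit or in voom. At an unadjusted p under 0.05 there were 0 higher and 5 lower of 8, where 15.5% of all genes were higher and 14.6% lower. Cct7 alone passed under that scaling (-0.72, adjusted p = 0.0485), with the median exon (-0.85, adjusted p = 0.046) and without ASA replicate 1 (-0.94, adjusted p = 0.0484). The median log2 fold change was -0.60, beside -0.06 for all genes, and for 5 of 8 (Cct7, Cct6a, Tcp1, Cct3 and Cct5) every ASA library lay below every DMSO library, against the 18.8% background. The limma adjusted p of the 8 ranged from 0.0867 (Cct7) to 0.779 (Cct4). Tcp1, the founding subunit, had 62.6, 50.2 and 53.5 RPKM in ASA replicates 1, 2 and 3 and 112, 63.8 and 92.3 in DMSO replicates 1, 2 and 3 (log2 fold change -0.66, interval -1.21 to -0.10). Cct5 had 347, 279 and 313 against 506, 386 and 497 (-0.56 ± 0.19 SE). Cct4 was the exception, with 331, 375 and 373 against 372, 290 and 361 (0.08, interval -0.33 to 0.50), and Cct2 overlapped as well, with 388, 479 and 430 against 585, 437 and 537.

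The mRNA levels of the subunits differed widely. Cct2 exceeded Cct6a by 11.5 to 23.2 times over the 6 libraries, and 4 subunits (Cct2, Cct5, Cct4 and Cct8) lay between 184 and 585 RPKM while the other 4 lay between 20.6 and 164. RefSeq names 14 pseudogenes after Cct6a, so its level is uncertain. For all 8 subunits DMSO replicate 1 was the highest and DMSO replicate 2 the lowest DMSO library. The summed level of the 8 was 2360, 1710 and 2220 RPKM in DMSO replicates 1, 2 and 3 and 1650, 1520 and 1640 in ASA replicates 1, 2 and 3. The proliferation marker Mki67 had the same order within DMSO, with 55.7, 16.4 and 44.8, and 2.58 to 7.92 in ASA. Its part in the CCT values was not tested. Without ASA replicate 2 and DMSO replicate 2, 6 of 8 subunits fell (Cct3, Cct5, Cct6a, Cct7, Cct8 and Tcp1), with log2 fold changes of -0.81 (Tcp1) to -0.59 (Cct8) and limma adjusted p of 0.02 to 0.0326, against 11.3% of all genes in that fit. The same 6 passed with library quality weights, and none of the 8 passed without ASA replicate 2 alone.

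**Figure D4:**
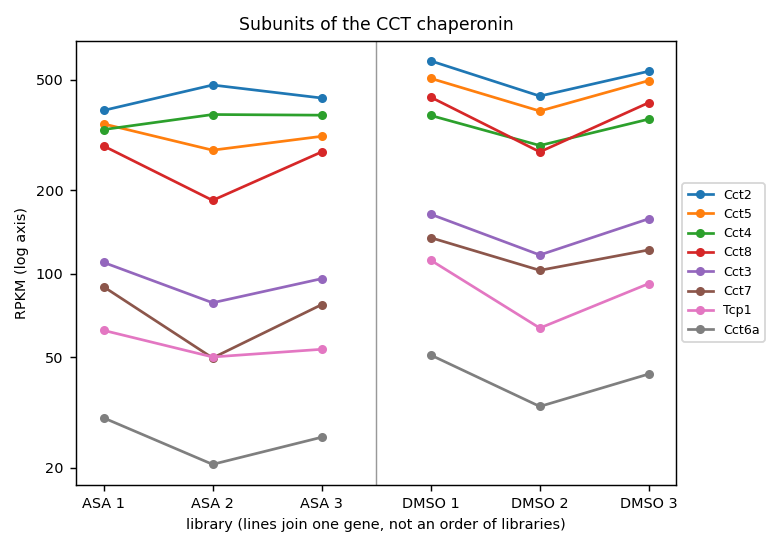
RPKM (log axis) of the 8 CCT subunits in each library, with lines joining the values of 1 gene within a group. DMSO replicate 2 is the lowest DMSO library for all 8, and Cct4 is the only subunit with a mean that is not lower in ASA (360 against 341).

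CCT receives clients from prefoldin, and its main clients are tubulin and actin. In the list of prefoldin and CCT partners 1 of 15 genes fell and none rose, with a median log2 fold change of -0.63. Of all genes 4.99% fell and 6.21% rose. The partner gene that fell was the prefoldin subunit Vbp1, with 80.3, 63.2 and 74.4 RPKM in ASA and 135, 113 and 109 in DMSO libraries (log2 fold change -0.71 ± 0.18, limma adjusted p = 0.0459). That call was kept only without ASA replicate 1 or ASA replicate 2 (adjusted p between 0.032 and 0.181 over single omissions). Of 12 tubulin and actin genes 2 fell and none rose, with a median of -0.64, against the same 4.99% and 6.21% of all genes. Tuba1a went from 387, 302 and 402 in DMSO to 214, 119 and 120 in ASA replicates 1, 2 and 3 (-1.31 ± 0.27, adjusted p = 0.0295 in limma), and Tubb2b from 121, 77.4 and 123 to 57.5, 42.5 and 34.2 (-1.26 ± 0.27, adjusted p = 0.0322). With single libraries omitted, the Tuba1a call was kept only without ASA replicate 1 or ASA replicate 2. The Tubb2b call was also kept without DMSO replicate 2. The summed level of the 12 tubulin and actin genes in DMSO replicate 2 (3310 RPKM) lay within the ASA range of 2250 to 3570, below the 6440 and 5320 of the other DMSO libraries.

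The mRNAs of the mitochondrial chaperonin pair varied in parallel over the libraries. Hspd1 (HSP60, the barrel) had 99, 45.5 and 81.8 RPKM in ASA replicates 1, 2 and 3 and 140, 71.6 and 120 in DMSO replicates 1, 2 and 3. Hspe1 (HSP10, the lid) had 170, 84.3 and 144 against 224, 121 and 202. The groups overlapped for both genes, and neither passed (log2 fold change -0.57 and -0.47, limma adjusted p = 0.319 and 0.372). The ratio of Hspe1 to Hspd1 stayed between 1.59 and 1.85 in the 6 libraries although Hspd1 itself ranged from 45.5 to 140. The genes lie head to head on opposite strands, Hspd1 at chr9:61680980-61690074 and Hspe1 at chr9:61692154-61694101 (Rnor_6.0), with 2079 bases between their nearest listed exons. RefSeq names 20 pseudogenes after Hspd1 and 1 after Hspe1, and all exon values of both were whole reads. The exons of each gene did not move 1 way. Of Hspd1 3 exons were higher and 5 lower in ASA (log2 differences of -1.35 to 0.58). Of Hspe1 1 exon was higher and 1 lower (0.51 and -0.56).

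Of 17 genes of the mitochondrial import motor and proteases 1 fell and none rose, with a median of -0.15, against 4.99% and 6.21% of all genes. That gene was Timm17a, a subunit of the inner membrane translocase, with 17.5, 11.5 and 10.9 RPKM in ASA and 34.9, 24.3 and 29.9 in DMSO libraries (log2 fold change -1.17 ± 0.26, limma adjusted p = 0.0358). Its call was kept only without ASA replicate 1 or ASA replicate 2 (adjusted p between 0.0218 and 0.168 over single omissions). Lonp1, the matrix protease, had 531, 211 and 508 against 173, 256 and 195. ASA replicate 2 lay within the DMSO range, and the difference missed the threshold (0.90 ± 0.37, adjusted p = 0.147). Omitting that library gave 1.34 and an adjusted p of 0.0107, past the threshold. Among the mitochondrial J proteins, Dnaja3 had 141, 73.2 and 144 against 89.8, 106 and 91, and rose only in the fits without ASA replicate 2 (log2 fold change 0.58, adjusted p = 0.0303), without ASA replicate 2 and DMSO replicate 2, and with library quality weights. Dnajc15 had 123, 118 and 105 against 121, 93 and 111 (0.09, interval -0.32 to 0.50).

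Small heat shock proteins were variable. Cryab, alpha B-crystallin, had 6.48, 35.7 and 10.4 RPKM in ASA replicates 1, 2 and 3 and 4.48, 1.76 and 3.65 in DMSO replicates 1, 2 and 3. Every ASA value lay above every DMSO value, in each of the 3 listed exons as well, but ASA replicate 2 was far above the others. The log2 fold change was 2.09 ± 0.64 (interval 0.60 to 3.58, limma adjusted p = 0.0741). It was 1.39 without ASA replicate 2 (adjusted p = 0.0636) and 2.61 without ASA replicate 1, where it passed (adjusted p = 0.0398). Omitting other single libraries gave adjusted p up to 0.194. Hspb2 is its head-to-head neighbour, 1053 bases away between nearest listed exons on chromosome 8, and stayed between 0.401 and 2.33 RPKM. The ratio of Cryab to Hspb2 was 43.2 in ASA replicate 2 and ran from 1.99 to 8.35 in the other libraries. Because Hspb2 was low, this ratio is less certain than that of the chaperonin pair.

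Hspb1 (HSP27) was the most abundant small heat shock protein gene, with 286, 537 and 182 RPKM in ASA against 195, 132 and 191 in DMSO libraries. ASA replicate 3 lay within the DMSO range, and the log2 fold change of 0.83 was 0.42 without ASA replicate 2 (limma adjusted p = 0.190 and 0.273). Hspb6 (HSP20) had 24.4, 40.5 and 22.3 against 36.3, 16.6 and 21.1. Hspb8, which works with BAG3, stayed low, between 1.83 and 5.89. Hspb11 carries the name of this family but encodes a subunit of the intraflagellar transport machinery. It had 26.9, 35.7 and 45.9 against 20.4, 20.9 and 18.5 (log2 fold change 0.82 ± 0.24, limma adjusted p = 0.0646) and moved past the threshold with ASA replicate 1 omitted (adjusted p = 0.0303).

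Bag1 fell, as the only 1 of 7 genes in the list of BAG proteins and other HSP70 regulators past the threshold (4.99% of all genes fell). It encodes an exchange factor that frees clients from HSP70 and couples it to the proteasome. It had 97.7, 85.8 and 106 RPKM in ASA replicates 1, 2 and 3 and 192, 285 and 240 in DMSO replicates 1, 2 and 3. The lowest DMSO value was well above the highest ASA value. The means were 96.5 ± 10.1 and 239 ± 46.3 (SD, n = 3), 2.46-fold apart (log2 fold change -1.30 ± 0.20 SE, 95% interval -1.76 to -0.83, limma adjusted p = 0.0158). None of the 7 listed exons overlapped between the groups. Bag1 lies at chr5:57254604-57266951 (Rnor_6.0). DMSO replicate 2, the lowest DMSO library for most chaperone genes, was the highest for Bag1. The call was lost only without ASA replicate 3 or DMSO replicate 3 (adjusted p between 0.0122 and 0.105). Bag6, which guards newly made membrane proteins, had 133, 174 and 131 against 155, 148 and 161 (log2 fold change -0.10, interval -0.51 to 0.32).

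The J-domain proteins, the largest group with 37 genes, held 2 of the 5 calls, in opposite directions. Of 8 Dnajb genes 1 rose, of 25 Dnajc genes 1 fell, and none of the 4 Dnaja genes passed in the main limma fit (0 higher and 1 lower at an unadjusted p under 0.05). Of all genes 6.21% rose and 4.99% fell, and 15.5% were higher and 14.6% lower at that unadjusted p. Dnajb2, a J protein enriched in neurons that sorts misfolded clients to the proteasome, had 170, 277 and 282 RPKM in ASA replicates 1, 2 and 3 and 81.5, 97.5 and 82.7 in DMSO replicates 1, 2 and 3. All ASA libraries were higher, ASA replicate 1 the least. The means of 243 ± 62.9 and 87.2 ± 8.94 (SD, n = 3) gave a 2.72-fold rise (log2 fold change 1.44 ± 0.23 SE, 95% interval 0.90 to 1.99, limma adjusted p = 0.0179). All 8 listed exons were higher on average and 6 of them did not overlap. ASA replicate 2 was uneven over the exons. It had 72 in exon 1 and 123 in exon 3, against 77.7 to 106 and 100 to 130 in DMSO libraries. In exons 4, 5 and 6 it had 370, 645 and 443. It lies at chr9:82436927-82442733 (Rnor_6.0) and kept its call without ASA replicate 1, ASA replicate 2 or DMSO replicate 2. Omitting each library in turn gave adjusted p from 0.0130 to 0.106.

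Dnajc25, a membrane-anchored J protein, fell. Its values were 44.2, 28 and 34.7 RPKM in ASA and 86.8, 77 and 81.5 in DMSO replicates 1, 2 and 3, without overlap in the gene or in any of its 4 listed exons. The means were 35.6 ± 8.14 and 81.8 ± 4.88 (SD, n = 3), 2.33-fold apart (log2 fold change -1.22 ± 0.21 SE, limma adjusted p = 0.0203). It lies at chr5:76150898-76171282 (Rnor_6.0). The call held without ASA replicate 1, ASA replicate 2 or DMSO replicate 2 and was lost without any 1 of the other 3 libraries (adjusted p between 0.0110 and 0.116).

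Dnaja1, the main cytosolic J protein of HSP70, had 136, 55.3 and 94.9 RPKM in ASA against 234, 165 and 211 in DMSO libraries, without overlap. It missed the threshold (log2 fold change -1.17 ± 0.33, limma adjusted p = 0.0590). Omitting ASA replicate 1 or ASA replicate 2 brought it past (-1.47 and -0.82, adjusted p = 0.026 and 0.0411), and with other single libraries omitted its adjusted p reached 0.202. With all libraries it passed in limma under median log ratio scaling (-1.13, adjusted p = 0.036) and with library quality weights (-1.07, adjusted p = 0.000733). RefSeq names 4 pseudogenes after it. Its paralog Dnaja2 had 133, 79.2 and 134 against 159, 150 and 158 (-0.47, interval -1.01 to 0.08). Dnajc10, a reductase of the endoplasmic reticulum, had 116, 53.4 and 92 against 176, 129 and 148 (-0.85 ± 0.30, adjusted p = 0.101). Omission of ASA replicate 1 brought it past (-1.09, adjusted p = 0.0452), and so did omission of ASA replicate 2 and DMSO replicate 2 together (-0.64, adjusted p = 0.0424), and with other single libraries omitted its adjusted p reached 0.288. Dnajc7, which binds HSP70 and HSP90, had 112, 66.4 and 111 against 162, 118 and 153 (-0.61, adjusted p = 0.156), and Dnajb12 of the endoplasmic reticulum membrane 65.6, 45.5 and 55.1 against 66.1, 76.2 and 68. In 7 of the 25 Dnajc genes every ASA library lay below every DMSO library, and in 1 (Dnajc4) above, against 18.8% and 19.9% of all genes. Dnajc4 was singled out after its values were seen.

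**Figure D5:**
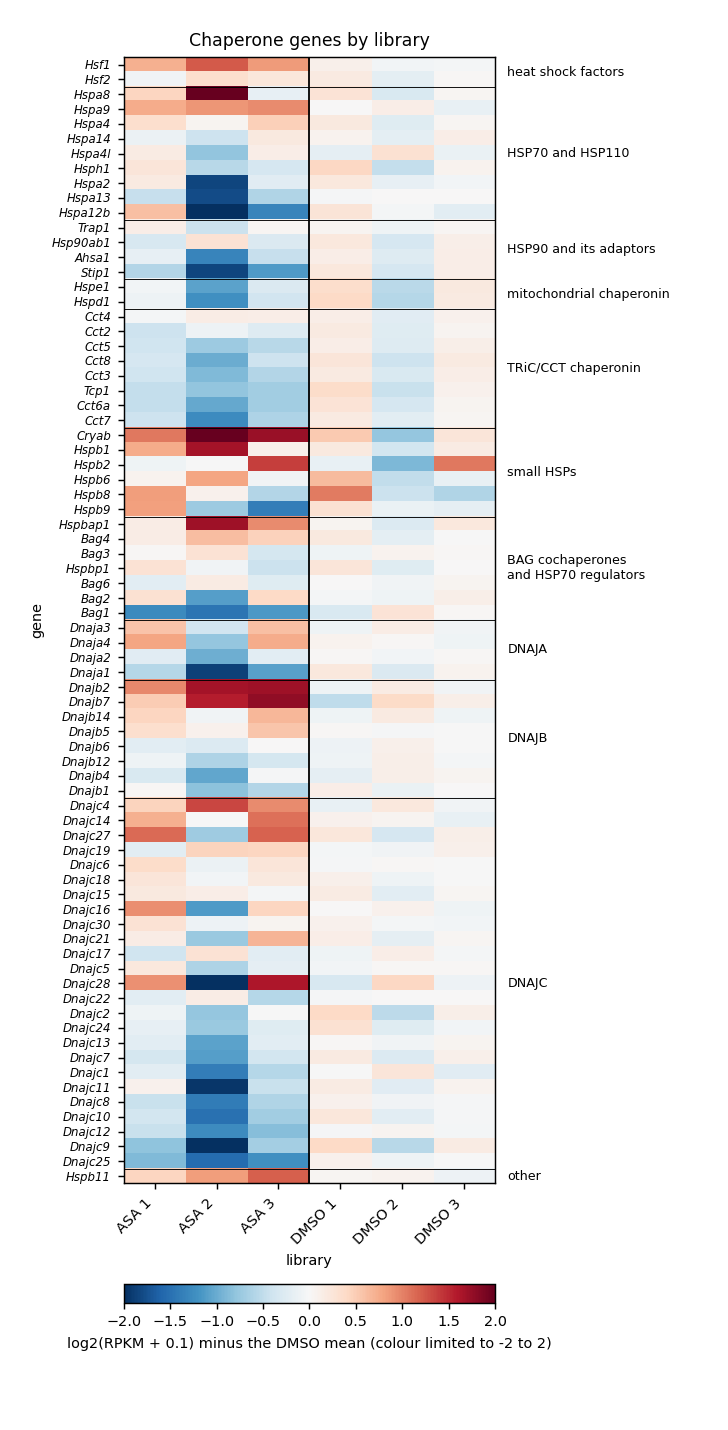
Each chaperone gene (rows, by role) in each library (columns), coloured by log2(RPKM + 0.1) minus the DMSO mean, with colour limited to -2 to 2. The ASA replicate 2 column holds the strongest colours, lowest of the 6 libraries for 45 of 76 genes, while Dnajb2, Hspa9, Hsf1 and Bag1 keep 1 colour across the ASA columns.

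None of 24 cochaperones outside the rule passed in the main limma fit, with a median log2 fold change of -0.22. At an unadjusted p under 0.05 there were 1 higher and 4 lower, where 15.5% of all genes were higher and 14.6% lower. Among these cochaperones Fkbp4, an immunophilin of the HSP90 cycle, had 231, 93.8 and 155 RPKM in ASA against 282, 259 and 274 in DMSO libraries (log2 fold change -0.86, limma adjusted p = 0.112). Of 11 other genes linked to HSF1 or to aggregates 1 rose (Hsf4) and 1 fell, against 6.21% and 4.99% of all genes. The one lowered was Serpinh1, the collagen chaperone HSP47 of the endoplasmic reticulum, with 173, 105 and 111 against 230, 325 and 229 (-1.03 ± 0.25, adjusted p = 0.0434). The Serpinh1 call was kept only without ASA replicate 1 or ASA replicate 2 (adjusted p between 0.0215 and 0.155 over single omissions). Of the 5 endoplasmic reticulum chaperones set aside by the rule, Hspa5 (BiP) rose, from 1110, 1720 and 1290 in DMSO to 2150, 5030 and 4880 RPKM in ASA replicates 1, 2 and 3 (1.47 ± 0.38, adjusted p = 0.0485). That call was kept only without ASA replicate 1. Omitting ASA replicate 2 gave 1.26 (adjusted p = 0.0578), and over all single omissions the adjusted p ran from 0.0161 to 0.192. The other 4 did not pass, Hsp90b1 among them with 641, 840 and 980 against 793, 1040 and 928.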

How the data were processed

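Per the labels' protocols, polyA-selected, strand-marking libraries were prepared from RNA isolated on columns. Tools listed in the submitters' processing notes, without role or order, are TopHat2 2.1.0 with Bowtie2, Trim Galore 0.4.1, cutadapt 1.14 and edgeR 3.26.8, and the build is Rnor_6.0. How exons were counted, whether by strand, and from which annotation is not given in the sources used here, so reads of overlapping antisense genes cannot be told apart. The deposited values are log2 RPKM per exon, which the authors computed with a constant added (0.00292 before the scaling to exon length). At least 4 of 6 libraries had over 10 reads in every exon row, so exons seen in 1 group only are not in the table.

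The log was undone, the constant removed, and reads summed over the listed exons of a gene. After this 95.7% to 96.8% of values were whole reads within 0.02 read. Replicates differed by more than sampling noise in every pair (chi-square per degree of freedom 119.2 to 1083). The test was limma 3.58.1 (R 4.3.3; lmFit, eBayes with trend, two-sided) on log2(RPKM + 0.1) over the 12502 genes whose mean RPKM reached 0.5, without covariates. Fold changes are on that scale, which understates the change of low genes. The script was tested on simulated data. Replicate numbers follow deposited order and pair nothing. The genes, role lists and related lists were chosen with earlier results of these data known. The named genes were every member past the threshold, the 3 with the highest mean RPKM in each role list, a fixed set of classical chaperones and, in related lists, up to 4 called genes by smallest p. Genes named to complete a count or show a contrast (Hspa13, Hspb2, Dnajc4, Cct3, Cct6a, Cct7, Cct8, Dnajc28, Hspb9, Mki67, Lonp1, Fkbp4 and Hsp90b1) were picked with their values in view. The mean-variance, pseudocount, filter, scaling, weighting, gene value and library alternatives are given in the closing section. No sequences were used.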

Additional observations from a re-analysis of the deposited data

How the results depend on the processing

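The counts of 3 higher and 2 lower genes did not change with a pseudocount of 0.01 or 1, no filter, a mean RPKM of at least 1, eBayes without trend, robust eBayes or voom on the recovered reads. Scaling by the median log ratio, which moved the median of all genes by 0.04, left 3 higher and gave 7 lower. Taking each gene's median exon gave 3 higher and 4 lower. Library quality weights (gene-by-gene method, since the default did not converge) gave 17 higher and 19 lower, with 25.3% and 20.6% of all genes called. Without ASA replicate 2 and DMSO replicate 2 there were 10 higher and 15 lower. Leaving out each library in turn gave 0 to 8 higher and 0 to 8 lower. With no call, the fits without ASA replicate 3 or DMSO replicate 3 had 7 or 6 chaperone genes higher and 14 or 7 lower at an unadjusted p under 0.05. The share of all genes at that threshold was not taken in these fits, so the counts have no background. With all libraries 8 chaperone genes were higher and 15 lower at that threshold, against 15.5% and 14.6% of all genes. Dnajc28, at -0.21, reversed to 1.26 without ASA replicate 2, 1.47 without that library and DMSO replicate 2, and 1.37 with library quality weights, and was called in all 3. Leaving out each library in turn moved it between -1.12 and 1.26. Over all 76 genes and 17 alternatives, 15 results lost their call, all with a library left out, and 78 gained one, Dnajc28 in its 3 reversed fits among them. The cause of these changes was not tested. No paired analysis was possible because the labels give no replicate numbers. Hspb9, at 0.576 RPKM, fell under the filter without ASA replicate 1. A limit set by depth was not tested.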
